A study of Mus musculus with 139 samples.

Results

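Described here are 4 potassium channel genes of hair cells: Kcnma1, Kcnmb2 and Lrrc52 of the BK channel and Kcnq5 of the KCNQ family. They were taken by symbol, and are 4 of the 55335 lines of the count table. Levels come from single inner hair cells (IHCs), which signal sound to the auditory nerve, and single outer hair cells (OHCs), which amplify the incoming vibration. The cells were taken from mouse cochleae at postnatal days 14 to 16, and no strain, genotype, sex or treatment is given in the sources used here. By labelled type and region there were 34, 34 and 19 IHCs from the apex, middle and base of the cochlear spiral, and 21, 23 and 8 OHCs. No label names an animal, so each of these 6 groups counts as 1 sample, no difference has a replicate check and no test between groups was run.

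BK channels open when the membrane is depolarised and calcium is high inside the cell. Kcnma1 encodes the pore-forming alpha subunit, and in mature IHCs the BK current is fast and makes up much of the outward current. Kcnmb2 encodes the beta2 accessory subunit, which can inactivate the channel, and Lrrc52 encodes the gamma2 accessory subunit, which shifts channel opening toward more negative voltages. Kcnq5 encodes a subunit of the slowly gating, voltage-dependent channels that carry M-type currents.

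Counts per cell ran from 71027 to 13576942, and the groups summed to between 28574809 (basal OHCs) and 199944360 (middle IHCs). The labelled types were checked with Otof and Slc17a8, which serve the IHC synapse, and with Ocm and Slc26a5, the calcium buffer and motor of OHCs. By these, 8 cells carried more of the other type's pair than of their own: 4 apical and 2 middle IHCs and 2 middle OHCs. A cell with little of both pairs can pass this check. No pair of cells had identical counts (0 pairs). The number in a cell's title has no stated meaning, but the 81 cells of a lower series, with numbers up to 100, and the 58 of a higher series, with numbers past 100, stand apart, so values are given within each series too. Apart from these title numbers, the number after a group's name (basal IHC cell 13) only names a cell. Intervals, at 95%, cover counting error only for levels and ratios, and for shares they treat cells as independent draws. Neither kind covers differences between animals.

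Kcnma1 was the member with the broadest signal. It had a read in 76 of 87 IHCs and 33 of 52 OHCs, and 172884 counts in all. It stood at 10 CPM (counts per 1000000 counts of the cell) or more in 54 IHCs, or 62.1% (Clopper-Pearson 51 to 72.3), and in 14 OHCs, or 26.9% (15.6 to 41). At 100 CPM or more there were 39 IHCs and 6 OHCs. For comparison, Otof, the release sensor of IHCs, reached 10 CPM in 93.1% of IHCs and in 32.7% of OHCs, with medians of 3875 and 2.08 CPM. In OHCs with title numbers above 100 the share was 57.1% for Kcnma1 and 47.6% for Otof, and in those numbered 100 or less 6.45% and 22.6%, so the order of the genes differed between the series. Cells with a Kcnma1 read were also deeper: the median total was 6092532 counts in IHCs with a Kcnma1 read against 1518436 without, and 4225207 against 987176 in OHCs.

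Within apical IHCs the single cells ran from 0 to 1267 CPM with a median of 90.8 (quartiles 0.524 and 431). Middle IHCs ran from 0 to 2169 CPM with a median of 49.9, and basal IHCs from 0 to 4078 with a median of 40.9. Apical OHCs ran from 0 to 789 CPM with a median of 1.08, middle OHCs from 0 to 533 with a median of 0.335, and basal OHCs from 0 to 82.5 with a median of 0.349. The single cells of the types overlapped in every region, and each group held cells without a read.

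**Figure D1:**
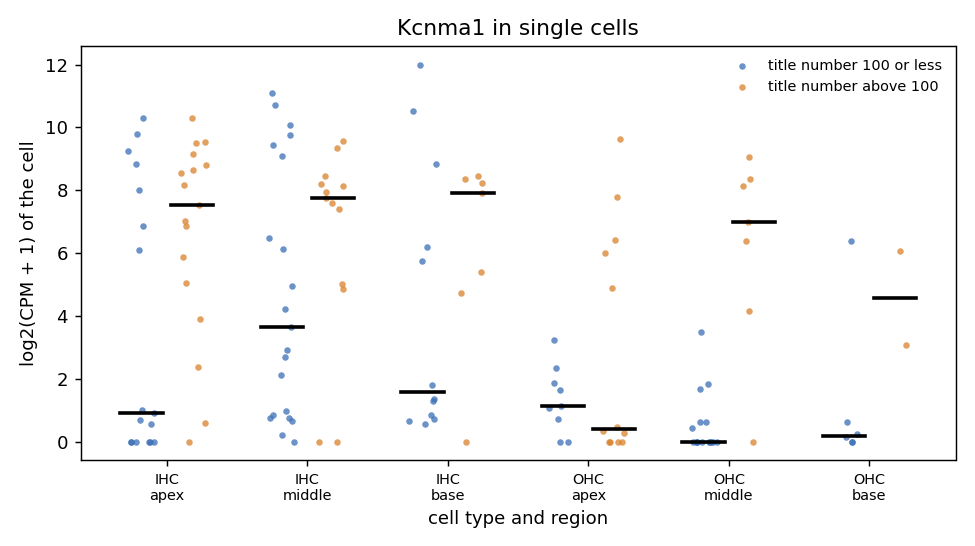
Kcnma1 in single cells, as log2(CPM + 1) on the vertical axis, by type and region on the horizontal axis, with each cell a point coloured by title number and the black lines the medians of each series. IHCs with title numbers above 100 have medians of 182, 215 and 239 CPM from apex to base, while many IHCs numbered 100 or less lie near 0 beside others at 1253, 2169 and 4078 CPM.

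Summed over the cells of a group and scaled, Kcnma1 stood at 314 CPM in apical IHCs (Poisson 311 to 317), 257 in middle IHCs (255 to 259) and 308 in basal IHCs (305 to 311). Apical, middle and basal OHCs stood at 136, 120 and 16.5 CPM (14.8 to 18.4 for the basal cells). The order of the 6 pooled levels was apical, basal and middle IHCs, then apical, middle and basal OHCs. The 3 IHC levels lie within a span that is small beside the SD between cells, which was 360 CPM for apical, 508 for middle and 958 for basal cells, and so do the apical and middle OHC levels (SD 175 and 137 CPM). This SD is the spread of single cells and gives no error for a pooled level. The gap between IHC and OHC levels was also smaller than the IHC SD in each region.

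A difference is the log2 of 1 group's (CPM + 1) over another's, a scale on which low genes appear to change less than they do, and 2-fold (a log2 of 1) is the size counted. Against IHCs, OHC Kcnma1 was lower by this measure in all 3 regions. The log2 ratio was −1.20 for apical cells (−1.23 to −1.18), −1.09 for middle cells (−1.13 to −1.07) and −4.14 for basal cells (−4.38 to −4.07), with a mean of −2.14. The intervals are those of the plain ratio, without the added 1 CPM. Without the cell that held most Kcnma1 in each group the mean was −2.82. The apical and middle values lay near the 2-fold line: with median-of-ratios factors in place of TMM both were −0.85, and without any factor the middle one was −0.86, short of 2-fold. In the higher title series alone the apical ratio was −0.84.

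The difference between types was not of one size in the 2 title series. Among cells numbered 100 or less, 23 of 50 IHCs (46%, 31.8 to 60.7) and 2 of 31 OHCs (6.45%, 0.791 to 21.4) had 10 CPM or more of Kcnma1. Among those numbered above 100, 31 of 37 IHCs (83.8%, 68 to 93.8) and 12 of 21 OHCs (57.1%, 34 to 78.2) did. IHCs had the larger share in both series, and both types had a larger share in the higher series. Leaving out the 11 IHCs and 15 OHCs that were shallow, rich in mitochondrial counts or against their label gave 65.8% (54 to 76.3) and 32.4% (18 to 49.8).

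**Figure D2:**
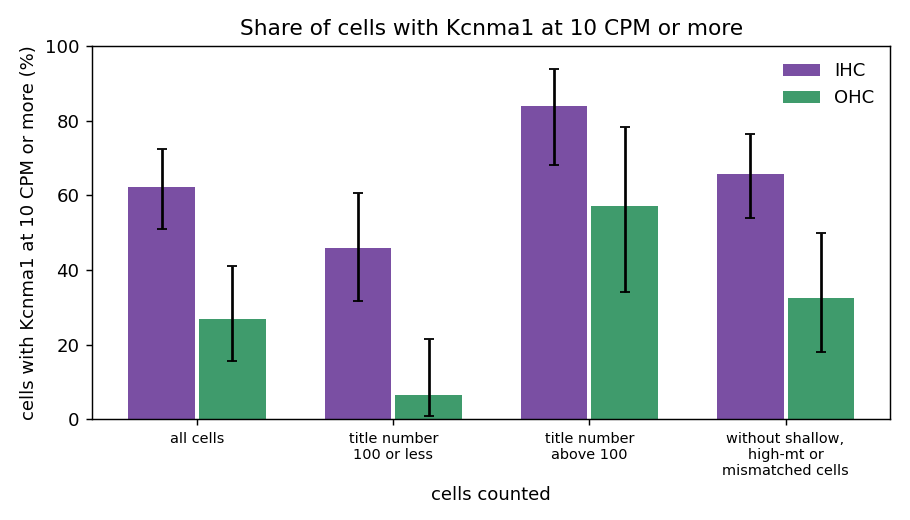
Percent of cells with Kcnma1 at 10 CPM or more, for IHCs and OHCs, in all cells, in each title series, and without shallow cells (under 500000 counts), cells with over 10% mitochondrial counts and cells against their label; error bars are Clopper-Pearson 95% intervals over cells. IHCs are higher in each pair of bars, at 62.1% against 26.9% in all cells.

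Pooled as CPM of the counts of each series, the OHCs numbered 100 or less were at 1.48, 0.644 and 6.47 CPM from apex to base, from 27, 16 and 168 counts. Those numbered above 100 were at 162, 212 and 62.3 CPM, the last from only 2 basal cells, of which 1 held 94.9% of their total counts. The medians of the OHC cells were 1.21, 0 and 0.141 CPM in the lower series and 0.312, 125 and 36.4 CPM in the higher one, so apical OHCs had low medians in both. The IHCs were at 328, 377 and 361 CPM in the lower series and 326, 213 and 191 CPM in the higher one. In middle OHCs of the higher series the pooled level was close to that of middle IHCs of the same series (log2 ratio 0.09), and the mean ratio over regions was −0.67 there against −7.28 in the lower series.

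Genes of the OHCs' own type differed between the series in some regions. Slc26a5 had a median of 2.83, 0 and 0.760 CPM in apical, middle and basal OHCs of the lower series, against 558, 252 and 0 CPM in the higher series. Ocm had a median of 36.5 CPM in middle OHCs of the lower series against 4450 CPM in the higher, and of 37.8 against 282 CPM in basal OHCs. In apical OHCs of the lower and higher series the Ocm medians were 4711 and 4619 CPM, and the Kcnma1 medians 1.21 and 0.312 CPM. Pooled, these cells had 6840 and 4939 CPM of Ocm and 1.48 and 162 CPM of Kcnma1. A single cell of the higher series held 78.2% of all apical OHC Kcnma1 counts. The part of these levels in the Kcnma1 difference was not tested.

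In the higher series the medians of the IHC cells were close, at 182, 215 and 239 CPM from apex to base. In the lower series they were 0.862, 11.4 and 2.02 CPM, and 7 of 17 apical, 11 of 21 middle and 5 of 12 basal IHCs had 10 CPM or more. The basal IHC cell 13 had 4078 CPM and held 47.3% of the basal IHC counts, with Otof at 280 CPM. Without it basal IHCs stood at 168 CPM.

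Between regions of the IHCs, Kcnma1 did not pass 2-fold over all cells: the log2 ratio was −0.03 for base against apex (0.11 with median-of-ratios factors) and −0.29 for middle against apex. From the median cells base against apex was −1.13, and with equal weight per cell 0.56, so its sign depended on how cells were combined. In the higher series alone, with TMM factors of that series, the ratios were −1.08 and −1.01, but the unscaled levels of 326, 213 and 191 CPM lie less than 2-fold apart. Among OHCs it was −0.18 for middle against apex and −2.97 for base against apex. The basal OHC value rests on 331 counts, 49.2% of them in 1 cell and 48.9% in another, and the apical one on 1 OHC with 789 CPM that held 78.2% of the counts and carried OHC levels of Ocm (6585 CPM) and 51.6 CPM of Otof. Without that apical cell apical OHCs stood at 34.2 CPM, and without the top cell of each group the ratio was −1.82. In the lower series alone it was 1.95, the other direction.

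Basal OHCs also differed from the other groups in markers of other cells, though not all in the same direction. The 7 markers of neurons and glia summed to 12987 CPM there against 1772 to 3840 CPM in the other groups, the 6 of blood and immune cells to 18483 against 392 to 3258 CPM, and the 5 of mesenchyme and bone to 20310 against 422 to 4678 CPM, with none of these markers at 0. Single basal OHCs ran from 4513 to 22530 CPM for neurons and glia, from 2985 to 28052 for blood and from 1348 to 31612 for mesenchyme. The 6 markers of supporting cells went the other way. They summed to 61.4 CPM in basal OHCs, the lowest of the 6 groups, against up to 1635 CPM (apical IHCs). The 6 markers of hair cells had a median sum of 8.92 CPM in single basal OHCs, against 946 to 4089 CPM in the other groups. The 7 markers of OHCs had a median sum of 93.3 CPM, against 8207 and 1684 CPM in apical and middle OHCs. Pooled, the hair cell markers summed to 1549 CPM (1592 in middle OHCs) and the OHC markers to 6086 CPM (5100 in middle OHCs). Pooled Ocm of basal OHCs fell from 4413 to 319 CPM without its top cell. The part of these marker levels in the low Kcnma1 of basal OHCs was not tested. In the pooled group, fewer cells with the transcript and less of it per cell cannot be told apart.

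To compare shares of cells at equal depth, each cell was thinned to 500000 counts, which left out 11 cells. Kcnma1 then had a read in 21 of 31 apical (67.7%), 25 of 33 middle (75.8%) and 15 of 19 basal IHCs (78.9%). In OHCs it had a read in 8 of 19 (42.1%), 11 of 19 (57.9%) and 2 of 7 (28.6%), against 71.4%, 52.2% and 75% before thinning. The IHC share was the higher in each region at this depth, with intervals that overlap (54.4 to 93.9 in basal IHCs and 3.67 to 71 in basal OHCs).

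Of the 3 genes of the BK channel, only the alpha subunit was widespread. Kcnmb2, the beta2 subunit, had a read in 22 cells, 15 IHCs and 7 OHCs, and reached 10 CPM in 4 IHCs and 1 OHC. Pooled, it stood at 4.99, 25 and 18.3 CPM in apical, middle and basal IHCs, and at 0.0497, 0.814 and 0 CPM in OHCs. The 8 basal OHCs gave 0 counts, where 3 counts over the group would be 0.149 CPM and the Poisson interval reaches 0.184 CPM. Pooled basal IHCs stood 122-fold above that 3-count level, which sets no limit for single cells or for the type.

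Each of these pooled IHC levels came almost wholly from 1 cell. The apical IHC cell 3 held 98.2% of the apical counts (73.2 CPM), the middle IHC cell 8 held 93.6% (399 CPM), and the basal IHC cell 3 held 98.1% (345 CPM). Without them the groups stood at 0.0943, 1.70 and 0.368 CPM. In OHCs, 1 middle cell with 15.2 CPM held 98.0% of the middle counts, and its mitochondrial share was 11.5%. The median cell of every group was at 0 CPM, so all 6 groups overlapped.

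The middle IHC with 399 CPM of Kcnmb2 had no Kcnma1 read in 12983740 counts, with Otof at 1593 CPM. The apical and basal ones had Kcnma1 at 130 and 40.9 CPM, both below the medians of 182 and 239 CPM of apical and basal IHCs in their series. Of the 5 IHCs with 1 CPM or more of Kcnmb2, 3 had 1 CPM or more of Kcnma1, against 58 of the other 82 IHCs. The few IHCs with much beta2 transcript thus held between 0 and 215 CPM of the alpha transcript.

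Kcnmb2 passed 2-fold in OHCs against IHCs in each region, with log2 ratios of −2.51, −3.84 and −4.27 and a mean of −3.54. All cells with 10 CPM or more carried title numbers above 100 (4 IHCs of 37 and 1 OHC of 21). In the lower series the mean ratio was −0.22, and without the top cell of each group it was −0.65, both short of 2-fold. Among IHC regions the pooled ratio was 1.69 for base against apex and 2.12 for middle against apex, and −0.08 for the latter in the lower series. Among OHCs it was 0.79 for middle against apex, and the apical and basal OHC levels both lay below the 0.149 CPM that 3 counts give in basal OHCs. After thinning, 4 of 31, 3 of 33 and 3 of 19 IHCs from apex to base had a read, and 2 of 19, 1 of 19 and 0 of 7 OHCs.

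Lrrc52, the gamma2 subunit, had a read in 34 cells, 25 IHCs and 9 OHCs, and reached 10 CPM in 9 IHCs (10.3%, 4.84 to 18.7) and 1 OHC (1.92%, 0.0487 to 10.3). Pooled, it stood at 9.69, 0.718 and 106.7 CPM in apical, middle and basal IHCs, and at 2.35, 0.693 and 0 CPM in OHCs. Basal OHCs gave 0 counts, and pooled basal IHCs stood 714-fold above the 0.149 CPM that 3 counts would give there. This sets no lower limit on the difference. The Poisson interval of basal OHCs reaches 0.184 CPM, and 1 cell held 92.9% of the basal IHC counts. The basal IHCs thus had the highest pooled level of this subunit, and in both types the middle was below the apex.

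That basal level came mostly from 1 cell. The basal IHC cell 17 had 1993 CPM and held 92.9% of the basal counts, with Kcnma1 at 1.53 CPM, Otof at 291 CPM and 13635 detected genes. Without it basal IHCs stood at 7.91 CPM, and apical IHCs without their top cell at 3.33 CPM. The share of basal IHCs at 10 CPM or more did not rest on it: 5 of 19 basal IHCs, 3 of 34 apical and 1 of 34 middle IHCs had that much. After thinning, 6 of 31, 1 of 33 and 6 of 19 IHCs from apex to base had a read, and 4 of 19, 2 of 19 and 0 of 7 OHCs.

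The log2 ratio of Lrrc52 in OHCs against IHCs was −1.67 for apical, −0.02 for middle and −6.75 for basal cells, with a mean of −2.82 and of −1.38 without the top cell of each group. In IHCs it was 3.33 for base against apex and −2.64 for middle against apex, and without the top cells 1.04 and −2.03. In the higher series base against apex was −0.57, and in the lower series, which holds the cell with 1993 CPM, 7.40. In OHCs it was −1.74 for base against apex and −0.98 for middle against apex.

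All 14 IHCs with 1 CPM or more of Lrrc52 had 1 CPM or more of Kcnma1, against 47 of the other 73, and their median Kcnma1 was 122 CPM against 31. Their median total was also higher, at 6698298 counts against 5153373. In OHCs, 4 of 6 such cells had Kcnma1 at 1 CPM or more, against 19 of the other 46. These are counts of cells that share groups and series, and no test was made of them.

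Kcnq5 was close to the detection limit throughout. It had 386 counts in 22 cells, 13 IHCs and 9 OHCs, and was highest at 36.3 CPM in 1 apical OHC. Pooled levels were 0.0675, 0.0993 and 0.175 CPM in apical, middle and basal IHCs, and 1.11, 1.76 and 0.0498 CPM in OHCs. It therefore failed the level filter of 5 CPM in at least 1 group that 15004 genes passed, while the other 3 members passed it.

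The apical and middle OHC levels of Kcnq5 came mostly from 3 cells. The apical OHC cell 10 held 92.0% of the apical counts and had no Kcnma1 read, with Ocm at 5837 CPM. Middle OHC cells 1 (21.3 CPM) and 4 (8.55 CPM) held 63.8% and 35.3% of the middle counts. No IHC reached 10 CPM, which allows a share of up to 4.15% by the exact interval. Without the top cells apical and middle OHCs stood at 0.0921 and 0.683 CPM. After thinning, 0 of 31, 1 of 33 and 2 of 19 IHCs from apex to base had a read of Kcnq5, and 4 of 19, 3 of 19 and 0 of 7 OHCs.

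For Kcnq5 the OHC against IHC log2 ratio was 0.99 in apical, 1.33 in middle and −0.16 in basal cells, with a mean of 0.72. In the lower series the middle ratio was −0.32. Between regions it was 0.14 and 0.04 in IHCs, for base and for middle against apex, and −1.01 and 0.38 in OHCs.

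Most cells with a Kcnq5 read were in the lower series and had many detected genes. Of 22 such cells, 18 were in the lower series, and 12 of the 13 IHCs with a read were. Their median number of detected genes was 10946 in IHCs against 6014 in IHCs without a read, at median totals of 5975051 and 5412461 counts, and 9525 against 5896 in OHCs. One of them is a middle IHC with 27575 detected genes, the most of any cell, which had 3.13 CPM of Otof and is among the 8 cells against their label.

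**Figure D3:**
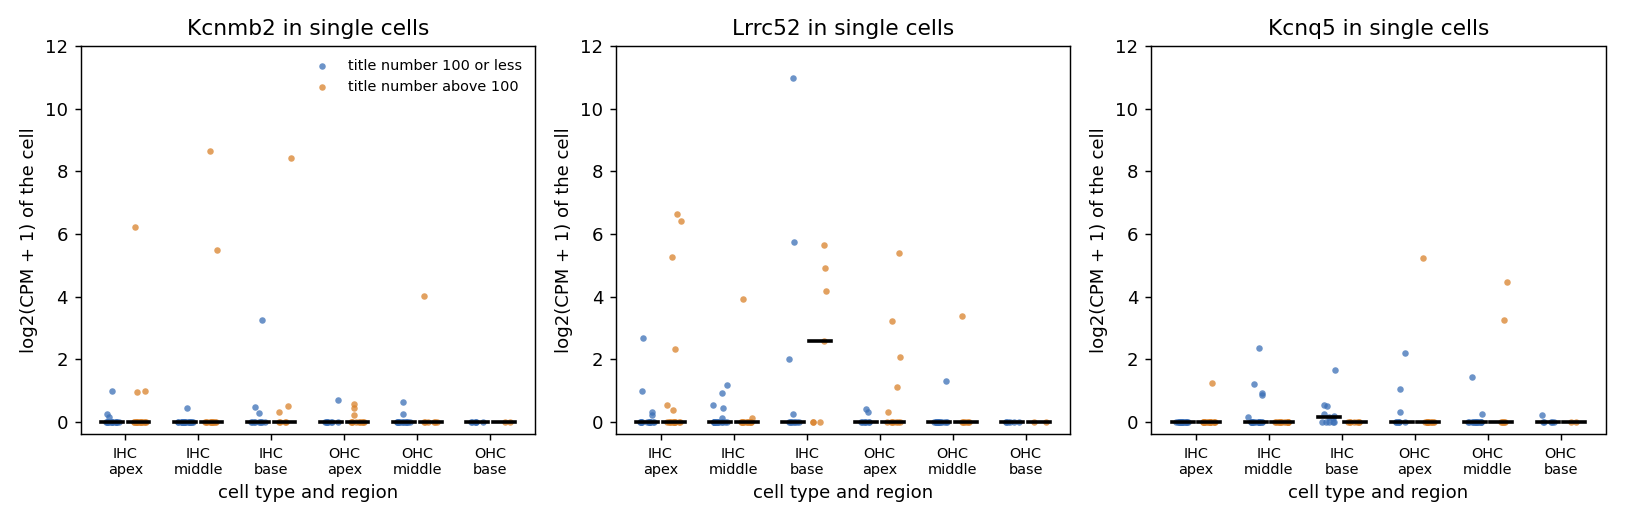
Kcnmb2, Lrrc52 and Kcnq5 in single cells, as log2(CPM + 1) on the vertical axis, by type and region, with points coloured by title number and black lines for medians of each series. Most cells lie at 0, and single cells stand far above the rest, such as basal IHC cell 17 with 1993 CPM of Lrrc52.

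Read against all genes, these differences are common ones in pooled single cells. Of the 3 members past the level filter, all 3 were 2-fold or more lower in OHCs than in IHCs in the mean of the regions, as were 39.2% of the 15004 genes, and none (0) was higher, against 17.3%. In the apex all 3 were lower against 32.4% of all genes and 0 higher against 28.6%. In the middle 2 were lower (Kcnma1 and Kcnmb2) against 29.7%, and 0 higher against 20.7%. In the base 3 were lower against 48.9%, and 0 higher against 16.1%. The median over all genes was −0.59 for the mean of the regions and −0.89 for the base, so the basal values stand beside that shift. Kcnmb2 and Lrrc52 passed the filter of 5 CPM only through IHC groups, with at most 0.814 and 2.35 CPM in OHCs. Their place among the lower genes was thus largely set by the filter. Without the top cells Kcnmb2 was at most 1.70 CPM in any IHC group, under the filter.

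Between regions, 2 of the 3 (Kcnmb2 and Lrrc52) were higher in basal than in apical IHCs against 26.5% of genes, and 0 lower against 31.5%. In middle against apical IHCs 1 was higher (Kcnmb2) against 28.7%, and 1 lower (Lrrc52) against 23%. Kcnmb2 passed the filter only in middle and basal IHCs (4.99 CPM in apical), and Lrrc52 only in apical and basal IHCs (0.718 CPM in middle). The filter thus partly set the Kcnmb2 calls and the lower call of Lrrc52. Without the top cells Kcnmb2 was at 0.0943, 1.70 and 0.368 CPM in apical, middle and basal IHCs. In basal against apical OHCs 2 were lower (Kcnma1 and Lrrc52) against 47.6%, and 0 higher against 17.4%. In middle against apical OHCs 0 were higher against 31.4%, and 0 lower against 31.3%.

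**Figure D4:**
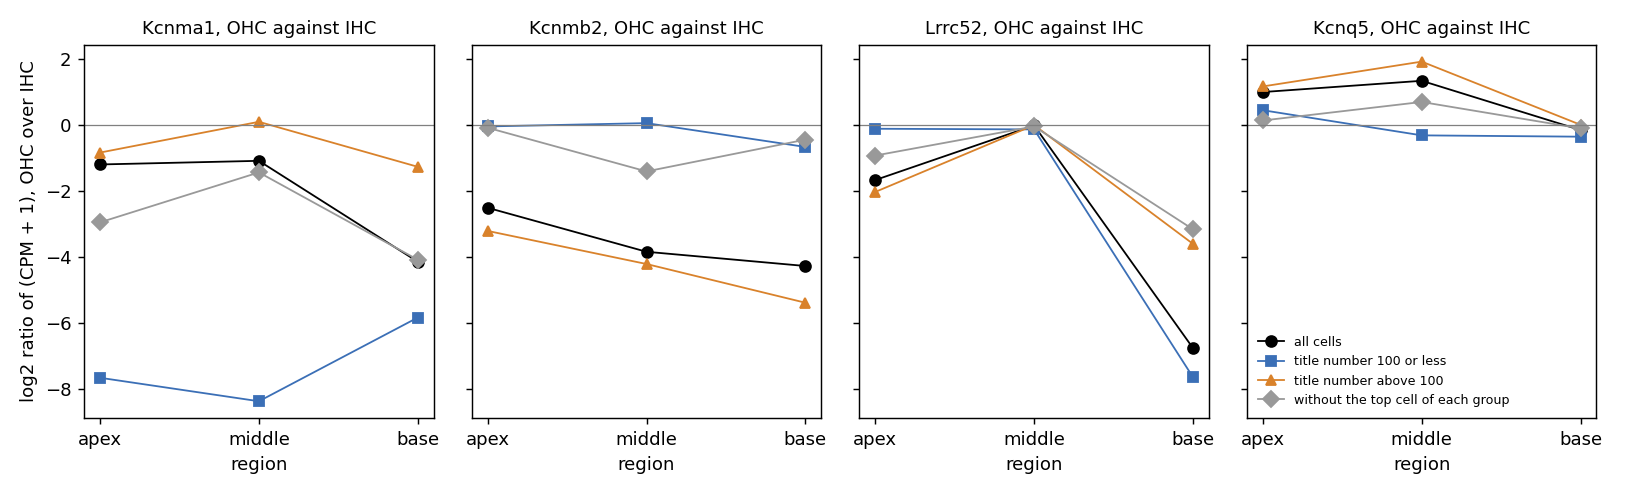
Log2 ratio of (CPM + 1) in OHCs over IHCs on the vertical axis, by region, for each member, in all cells, in each title series, and without the top cell of each group. Kcnma1 lies at −7.65, −8.36 and −5.83 in the lower series and at −0.84, 0.09 and −1.27 in the higher one.

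Per kilobase of annotated exon, which lets genes be compared, Kcnma1 stood at 18.5, 15.1 and 18.1 CPM per kb in apical, middle and basal IHCs over 16976 exonic bases, and at 8.03, 7.06 and 0.971 in OHCs. Lrrc52, with 1143 bases, reached 93.4 CPM per kb in basal IHCs and 8.47 in apical IHCs, and Kcnmb2, with 3128 bases, 1.60 to 7.99 in IHCs. Kcnq5, with 7689 bases, was at most 0.228 CPM per kb. On this scale Kcnma1 exceeded both accessory genes in all groups except basal IHCs, where the cell with 1993 CPM put Lrrc52 above it.

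In GRCm38, Kcnma1 lies on chromosome 14 from 23289431 to 24014491 on the minus strand, and Kcnmb2 on chromosome 3 from 31902507 to 32200180 on the plus strand. Lrrc52 lies on chromosome 1 from 167445669 to 167466780 and Kcnq5 on the same chromosome from 21398403 to 21961942, both on the minus strand. Strandedness of the counting is not given, and 1016 exonic bases of Kcnma1 (5.98%) are shared with the opposite-strand 4930519K11Rik, which had 46 counts. Kcnq5 shares 237 exonic bases (3.08%) with the opposite-strand Gm26580. Reads in these bases could not be told apart by gene.

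Of the other BK subunit genes, only Lingo1 stayed above 5 CPM in any group without the top cell of that group. Of the 10 genes of the channel, members included, 7 passed the level filter. Kcnmb2, Lrrc52 and Kcnmb3 passed only through IHC groups, and Lrrc38, Lingo1 and Lrrc55 only through OHC groups. For genes that passed in 1 type only, the filter partly set the direction of the ratio. In the mean of the regions 3 (the members) were lower in OHCs, against 39.2% of all genes. Higher in OHCs was 1, Lrrc38, against 17.3%. Lrrc38, the gamma4 subunit gene, stood at 10 CPM in middle OHCs and at most 0.0316 CPM in the other groups, with a mean ratio of 1.14. One middle OHC held 68% of its counts, and without it the group stood at 3.45 CPM, under the level filter. Lingo1, also on this list, stood at 15 CPM in middle OHCs, and at 8.51 CPM without the top cell. Middle IHCs had 2.45 CPM of it (log2 ratio 2.21). In the apex it was lower in OHCs (0.189 against 2.89 CPM, −1.71), with 98.1% of the apical IHC counts in 1 cell. Its basal ratio was −0.09 and its mean ratio 0.14. Kcnmb3, a beta subunit gene, stood at 6.26 CPM in apical IHCs and 0.477 CPM in apical OHCs, but at 0.781 and 0.0106 CPM without the top cell of each. Lrrc55, the gamma3 subunit gene, stood at 3.72 CPM in apical IHCs and 7.42 CPM in basal OHCs, and at 0.0349 and 1.37 CPM without the top cell of each. Kcnmb4, the beta subunit of neurons, was at most 4.89 CPM (apical OHCs, 0.169 CPM without the top cell), and Kcnmb1 and Lrrc26 were at most 0.129 CPM. The median of the 7 was −0.79, against −0.59 over all genes.

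In the KCNQ family, Kcnq3, which can join with Kcnq5 in M-type channels, went in both directions: its log2 ratio in OHCs against IHCs was −3.08 for apical, 1.45 for middle and −3.70 for basal cells. The basal IHC level of 15.2 CPM fell to 1.78 CPM without 1 cell that held 89.2% of the counts. Kcnq1, the channel of the endolymph-secreting cells of the inner ear, was higher in apical OHCs (8.51 against 0.0944 CPM, log2 ratio 3.12) and lower in middle OHCs (0.0886 against 2.65 CPM, −1.75), with 74.4% of the apical OHC counts in 1 cell and 60% of the middle IHC counts in 1 cell. Kcnq5 had a lower pooled level per kb than Kcnma1 in every group.

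The calcium channel of the IHC release sites is formed around the subunit encoded by Cacna1d. Its level was 178, 186 and 362 CPM in apical, middle and basal IHCs and 464, 217 and 593 CPM in OHCs, a mean ratio of 0.77 that passed 2-fold only in the apex (1.38). The basal OHC level rests on 1 cell with 90.5% of the counts: without it basal OHCs stood at 70.4 CPM, below the 287 CPM of basal IHCs without their own top cell. In the higher title series the 2 basal OHCs were at 44.7 CPM, also below basal IHCs (617 CPM). It stood at 10 CPM or more in 49.4% of IHCs and 53.8% of OHCs. Of the 4 genes of this list 0 were higher, against 17.3% of all genes, and 2 lower, against 39.2%, in the mean of the regions: Cacna2d2 (−2.62) and Cabp2 (−3.00), a calcium-binding regulator of the channel. In apical cells Cabp2 was on the higher side in OHCs (log2 ratio 0.45), with 68.3% of the apical OHC counts in 1 cell, and it was lower in middle (−2.60) and basal cells (−6.87). The list's median was −1.29, against −0.59 over all genes.

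Cacna1d also differed between the title series: its share at 10 CPM or more was 28% in the lower and 78.4% in the higher series of IHCs, and 32.3% and 85.7% in OHCs. Kcnma1 reached 10 CPM in 6.45% of the lower-series OHCs. Of the other calcium-activated potassium channels, 1 of 6 passed the filter, Kcnn2, the SK2 channel of the efferent synapse, at 54.5 and 26.5 CPM in apical and middle OHCs against 5.84 and 1.46 CPM in IHCs. In the base it went the other way, at 0.946 CPM in OHCs and 6.80 CPM in IHCs, though 1 cell held 88.3% of those IHC counts and the group stood at 0.860 CPM without it. Of 13 other hair cell potassium channel genes 10 passed, with 0 higher in OHCs, against 17.3% of all genes, 6 lower, against 39.2%, and a median of −1.66, against −0.59.

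**Figure D5:**
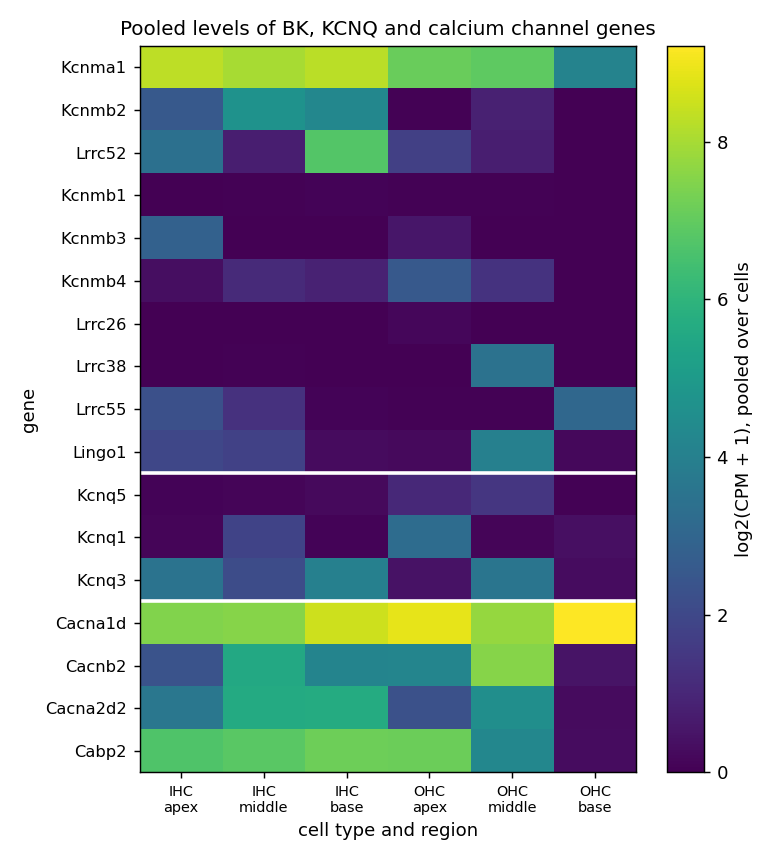
Pooled levels as log2(CPM + 1), shown by colour, of the BK channel genes (top block), 3 KCNQ genes (middle block) and the calcium channel genes (bottom block), with genes in rows and the 6 groups in columns. The colours are not corrected for gene length, so only groups are to be compared within a row: Kcnma1 goes from 314 CPM in apical IHCs to 16.5 CPM in basal OHCs.

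The genes whose log2(CPM + 1) was most like that of each member over all cells were taken from 8709 protein-coding genes with a read in at least 25% of cells. For Kcnma1 they were Sod2 (Pearson 0.582), Synj2 (0.571), Rbm5 (0.560), Fzd4 (0.558) and Mtss1 (0.552). Subtracting the mean of each group and title series left 0.443, 0.459, 0.414, 0.393 and 0.412. Kcnma1 itself had a Pearson of 0.374 with the log of total counts over the same cells, and all these genes share cells and depth.

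For the 3 sparse members the likeness rests on few cells. For Kcnmb2 (22 cells with a read) they were Ints3 (0.471), Zfp763, Ctnnbip1, Susd4 and Rprm (0.442), and for Lrrc52 (34 cells) Map4k2 (0.430), Id3, Asphd2, Snx19 and Rbx1 (0.405). For Kcnq5 they were Slco2a1 (0.579), Cacna2d1 (0.568), Abca9 (0.565), Il17rd (0.563) and Lama4 (0.548). Kcnq5 had a Pearson of 0.332 with the number of detected genes over all cells and 0.577 within IHCs, and of 0.0278 with the log of total counts.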

How the data were processed

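Each sample is a single cell, sequenced on an Illumina instrument, per the labels' protocols. The deposited table holds raw counts, with 1 line for each of 55335 genes and 1 column for each of 139 cells. The submitters' processing notes name Trimmomatic, HISAT2, featureCounts and Subread 1.4.6 and the build GRCm38 (mm10); whether counting used strand, how reads with several matches were handled and whether molecular identifiers were read are points not given in the sources here. Without identifiers, reads are not independent molecules, and the intervals of levels and ratios cover counting error only. Columns were matched to samples by title, and 0 columns stayed unused. Identifiers were looked up in GENCODE M21, where 55154 matched, and the 181 lines without a symbol counted only toward totals.

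The 4 members are those listed for this work, and the members and gene lists were chosen with earlier results of these data known. The counts of a group's cells were summed and scaled by TMM factors (edgeR 4.0.16 in R 4.3.3) to CPM. A difference is the log2 of 1 group's (CPM + 1) over another's, and 2-fold was the size counted. The level filter was 5 CPM in 1 or more groups with a symbol. Single-cell levels are CPM of the cell's own total. Intervals are exact Poisson for levels and Clopper-Pearson for shares, at 95%, and 3 counts over a group were the limit taken for 0. Those of ratios are exact binomial intervals of the plain ratio, without the added 1 CPM. Thinning drew 500000 counts per cell without replacement. Cells numbered within a group are named in order only. The rule for named genes was the members, the genes of the lists and the 5 most correlated with each member; of the lists, those in the text were picked with their values seen, and the rest are given by counts. Some genes of the KCNQ list, and its counts, are not reported here. The loci inside the genes of the other observations, and the single cells picked out, were chosen after their values were seen. Simulated counts with known differences were used to test the steps. Alternatives are in the closing section. Python 3.11.15 was used.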

Additional observations from a re-analysis of the deposited data

Results flagged for a closer look

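Lrrc52 in base against apex had a log2 ratio of 3.33 in IHCs and −1.74 in OHCs, opposite directions in the 2 types, and the difference between them was not tested. The IHC value rests largely on 1 basal cell, without which (and without the top apical cell) it was 1.04, and the OHC value on 0 counts in 8 basal cells. In the higher title series the IHC value was −0.57.

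Among the 8 basal OHCs, 1 cell had Kcnq5 at 0.169 CPM, which is a single count (1), and the other cells had none, so that its gap to the next cell was the whole range, above the critical share of 0.526. With the other cells at 0, a single count is enough to meet this criterion, so it says little about the cell.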

How the results depend on the processing

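The mean log2 ratio of Kcnma1 in OHCs against IHCs kept its sign under all 14 alternatives and stayed 2-fold or more under 13. It was −2.23 without a TMM factor, −1.64 with median-of-ratios factors, −2.93 with equal weight per cell, −5.22 from median cells, −2.51 after thinning, −2.70 without the deepest cells, −2.82 without the top cells, −7.28 in the lower title series and −0.67 in the higher. Its middle ratio turned to 0.09 in the higher series, and its OHC base against apex ratio to 1.95 in the lower. For Kcnmb2 the mean was −5.80 with a pseudocount of 0.1 CPM, −2.98 with equal weight, 0.00 from median cells, −2.75 after thinning, −3.76 without cells of over 10% mitochondrial counts, −0.22 and −4.26 in the lower and higher series and −0.65 without the top cells; in the lower series its middle ratio was 0.05 and IHC middle against apex −0.08. For Lrrc52 it was −4.04 with the small pseudocount, 0.00 from median cells, −2.58 after thinning, −1.88 in the higher series and −1.38 without the top cells; IHC base against apex was −0.57 in the higher series. For Kcnq5 it was 1.73 with the small pseudocount, 0.00 from median cells, −0.08 and 1.02 in the lower and higher series and 0.23 without the top cells; its middle ratio was −0.32 in the lower series. The causes were not tested. The members past 2-fold in base against apex numbered 2 in IHCs, and 1 from median cells, in the lower series and without the top cells; in OHCs they numbered 2, and 0 from median cells, 1 without the deepest cells and 1 in the lower series. The median over all genes moved from −0.59 to −0.26 with median-of-ratios factors. Shares of cells in each series and without doubted cells were added after the data were seen. No paired analysis was possible because the labels name no animal and no test between groups was run.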

Other observations

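Inside the span of Kcnmb2, on the same strand, lies Gm37834, a locus of the annotation class TEC with 3035 exonic bases on chromosome 3 (31954764 to 31957798) that shares 0 exonic bases with Kcnmb2. It had 8351 counts, nearly as many as the 8793 of Kcnmb2, of which 6978 were in basal IHCs and 1360 in middle OHCs. The basal IHC cell 3, the one with 345 CPM of Kcnmb2, had 1020 CPM of it, while the middle OHC highest in it had no Kcnmb2 read. Of the 12 cells with a read of the locus, 5 had a read of Kcnmb2. Middle IHCs, which include the cell with 399 CPM of Kcnmb2, gave 2 counts of the locus in all.

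Inside Kcnma1, on the opposite strand, 5430425E15Rik (1183 bases, sharing 0 exonic bases) had reads in 25 cells, and all 25 also had a Kcnma1 read. The highest cell, a middle IHC with 178 CPM of it, had 0.670 CPM of Kcnma1.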
